A study of Mus musculus with 6 samples.

Results

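Genes of folding and secretion in the endoplasmic reticulum were examined as a group of 40, listed by symbol and taken by exact match from the deposited count table. All 40 symbols were found, in 41 of the 21956 rows, because Ddit3 stood on 2 gene IDs. The second of these (ENSMUSG00000116429) held between 0.47 and 8.67 estimated counts per library and was too low to test, and the values of Ddit3 below are those of ENSMUSG00000025408. The group holds chaperones, lectins, disulfide isomerases, the channel for nascent chains, the enzyme that cuts signal peptides, the machinery that degrades misfolded proteins, a cargo coat subunit and the stress sensors. RNA sequencing was done on mouse material labelled lung tissue, in 3 libraries labelled Aalter and 3 labelled VE. The labels spell out neither name and give no strain, age, dose or time, and no untreated group was analysed here. Alpha tocopherol, which is a vitamin E compound, and inflamed allergic airways appear in the title, and the comparison asks how VE differed from Aalter. Whether each library is a separate animal is not stated, so the p-values measure the spread between these libraries, which may be technical.

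Library totals lay between 11617074 and 16205053 estimated counts. The leukocyte gene Ptprc lay between 1095 and 1405 CPM (counts scaled to a common library size) in all libraries. The alveolar gene Sftpc, a defining marker of lung epithelium, was present but low, at 12.6 to 18.3 CPM. In every library Sftpc was below Ptprc and below the hepatocyte gene Alb, which ranged from 21.6 to 771 CPM. These values do not show that the material was whole lung, and its cell make-up was not tested. Immunoglobulin genes took 2.37%, 0.534% and 0.542% of counts across Aalter, in the order of the library numbers that all such values follow, against 2.68%, 3.10% and 5.28% across VE. Aalter-1 stood apart from the other Aalter libraries on this measure and lay near VE. Hepatocyte markers summed to 1123 CPM in Aalter-1 and 1433 CPM in VE-1 but to between 181.5 and 221.6 CPM in the other 4 libraries, so the libraries numbered 1 carried liver transcripts in both groups. The counts of called members are also given without Aalter-1 and without both of these libraries. The pathway lists, marker lists, sums and ratios were not computed without them.

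Secreted and membrane proteins enter the endoplasmic reticulum through the Sec61 channel, lose their signal peptide, are folded by the Hsp70 chaperone BiP and its helpers, receive disulfide bonds, and leave in coated vesicles. Chains that do not fold are sent back to the cytosol and degraded. When unfolded chains build up, the sensors IRE1 (Ern1), ATF6 (Atf6) and PERK (Eif2ak3) start the unfolded protein response, in which XBP1 and ATF6 raise chaperone and degradation genes while PERK slows translation and, through ATF4, raises Ddit3. Plasma cells, which secrete antibody, depend on this machinery, and it is used by every cell that secretes.

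The promoters of many such genes hold the ER stress response element, a site bound by ATF6 with NF-Y and first described in genes of this kind, so that its presence here is no new finding. RefSeq promoter windows (GRCm38.p6, 250 bases before to 50 after the start site) were at hand for 32 of the 40 genes. They were searched on both strands for this element (ERSE, CCAAT and CCACG with 9 bases between them), its shorter form (ERSE-II, ATTGG and CCACG with 1 base between them) and the XBP1 site UPRE (TGACGTGG). At least 1 of the 3 was present in 13 of the 32 genes and in 0.822% of all 32851 windows. ERSE was in 9 genes and 0.119% of windows, ERSE-II in Dnajb11 and Herpud1 and 0.0365% of windows, and UPRE in Txndc5 and Sec24d and 0.676% of windows. A gene can have more than 1 window and counts when any of them holds a motif, while the shares are per window. Txndc5 has 3 windows, of which 1 holds the motif. A match is a description of letters and not a shown binding site. Windows are printed for the 6 genes that hold a motif and passed the test of VE against Aalter, the first 5 higher and Syvn1 lower in VE. Each is read 5′ to 3′ along its gene, with the fixed letters of the motif in capitals.
Hsp90b1, chr10:86705395-86705694, minus strand: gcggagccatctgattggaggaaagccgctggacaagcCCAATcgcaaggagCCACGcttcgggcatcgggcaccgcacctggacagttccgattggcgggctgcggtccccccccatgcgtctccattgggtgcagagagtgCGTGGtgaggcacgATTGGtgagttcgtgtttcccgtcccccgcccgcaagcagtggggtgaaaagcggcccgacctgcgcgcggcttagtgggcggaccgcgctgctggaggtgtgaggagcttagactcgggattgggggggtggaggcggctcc
Dnajc3, chr14:118937682-118937981, plus strand: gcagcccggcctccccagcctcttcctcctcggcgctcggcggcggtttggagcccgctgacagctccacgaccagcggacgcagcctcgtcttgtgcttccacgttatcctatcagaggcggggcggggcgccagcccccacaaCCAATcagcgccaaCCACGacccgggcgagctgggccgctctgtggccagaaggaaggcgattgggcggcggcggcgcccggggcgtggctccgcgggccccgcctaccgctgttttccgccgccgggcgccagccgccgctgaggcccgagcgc
Dnajb11, chr16:22857595-22857894, plus strand: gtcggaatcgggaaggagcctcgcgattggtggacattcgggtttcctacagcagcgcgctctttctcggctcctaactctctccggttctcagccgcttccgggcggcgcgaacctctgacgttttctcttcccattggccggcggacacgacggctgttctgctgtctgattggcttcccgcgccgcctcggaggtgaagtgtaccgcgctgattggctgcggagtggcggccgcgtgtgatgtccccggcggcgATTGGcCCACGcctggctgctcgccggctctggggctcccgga
Creld2, chr15:88819396-88819695, plus strand: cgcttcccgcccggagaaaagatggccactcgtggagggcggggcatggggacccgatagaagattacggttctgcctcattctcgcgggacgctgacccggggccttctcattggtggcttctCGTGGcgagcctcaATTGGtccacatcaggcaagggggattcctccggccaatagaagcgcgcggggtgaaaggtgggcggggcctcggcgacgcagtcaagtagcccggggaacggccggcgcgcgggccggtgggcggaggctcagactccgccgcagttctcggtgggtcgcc
Txndc5, chr13:38527865-38528164, minus strand: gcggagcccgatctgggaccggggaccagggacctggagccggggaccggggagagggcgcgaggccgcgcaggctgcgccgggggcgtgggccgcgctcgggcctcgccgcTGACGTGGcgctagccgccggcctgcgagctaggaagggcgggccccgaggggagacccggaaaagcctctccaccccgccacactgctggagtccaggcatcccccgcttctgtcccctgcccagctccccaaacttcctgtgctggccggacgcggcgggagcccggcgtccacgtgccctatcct
Syvn1, chr19:6046326-6046625, plus strand: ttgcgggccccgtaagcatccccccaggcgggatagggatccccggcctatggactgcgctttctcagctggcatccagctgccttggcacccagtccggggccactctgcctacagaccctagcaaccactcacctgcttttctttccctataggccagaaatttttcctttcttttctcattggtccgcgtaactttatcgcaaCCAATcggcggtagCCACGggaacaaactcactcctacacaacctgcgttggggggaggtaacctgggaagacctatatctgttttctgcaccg

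Hsp90b1 holds ERSE on each strand, with bases at -212 to -194 and -107 to -89 relative to the start site, which is counted as 0. The element of Hspa5, the best known target, is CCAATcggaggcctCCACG at -65 to -47, that of Calr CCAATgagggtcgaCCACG at -162 to -144, and that of Canx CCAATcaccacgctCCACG at -145 to -127, each read on the strand that carries it. These 3 genes did not pass the test. Of the 13 genes with a motif 5 rose and 1 fell (median log2 fold change 0.31), and of the 19 with none in the window 9 rose and 2 fell, with a median of 0.41.

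In VE, 17 of the 40 genes were higher, 3 were lower and 20 did not pass. The rises were spread over chaperones, disulfide isomerases, translocon and signal peptidase subunits, and were modest, between 1.23-fold and 1.97-fold. The 3 falls were the sensor genes Ern1, 4.13-fold lower, and Eif2ak3, 1.76-fold lower, and the ubiquitin ligase gene Syvn1, 1.55-fold lower. The third sensor gene, Atf6, was 1.53-fold higher. Calls are from edgeR's quasi-likelihood test at a Benjamini-Hochberg adjusted p under 0.05 over 12551 genes, of which 12.8% rose and 19.5% fell. Every VE library was above every Aalter library for 24 of the 40 genes and for 25.6% of all genes tested, and every VE library below for 3 of the 40 and for 26.3%. The median log2 fold change was 0.30 over the 40 genes and 0.023 over all genes tested. In RNA from a mixture of cell types, a change in the number of cells of a type and a change in RNA per cell cannot be told apart.

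These calls rested on particular libraries. Without Aalter-1, 24 of the genes rose and 9 fell, beside 3561 rises and 3652 falls over all 12804 genes tested. Without both libraries numbered 1, 26 rose and 9 fell, beside 3404 and 3559 of 12518 genes. Without VE-2 edgeR called 0 members in either direction, beside 2 rises and 177 falls over all 12969 genes. At an unadjusted edgeR p under 0.05 in that fit, 17 members were higher and 3 lower, beside 4332 of all genes in either direction. This threshold is looser than that of the calls above, and equal counts need not be the same genes. With library size alone as the scaling, which moves the median of all genes from 0.023 to -0.117, 6 rose and 7 fell. Over all genes 495 rose and 3231 fell, so that the share of rises among calls depends on the scaling. After correction for trends on GC content and transcript length 11 rose and 3 fell, beside 1698 and 1586 of all genes. No called gene changed sign under any alternative tried.

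**Figure D1:**
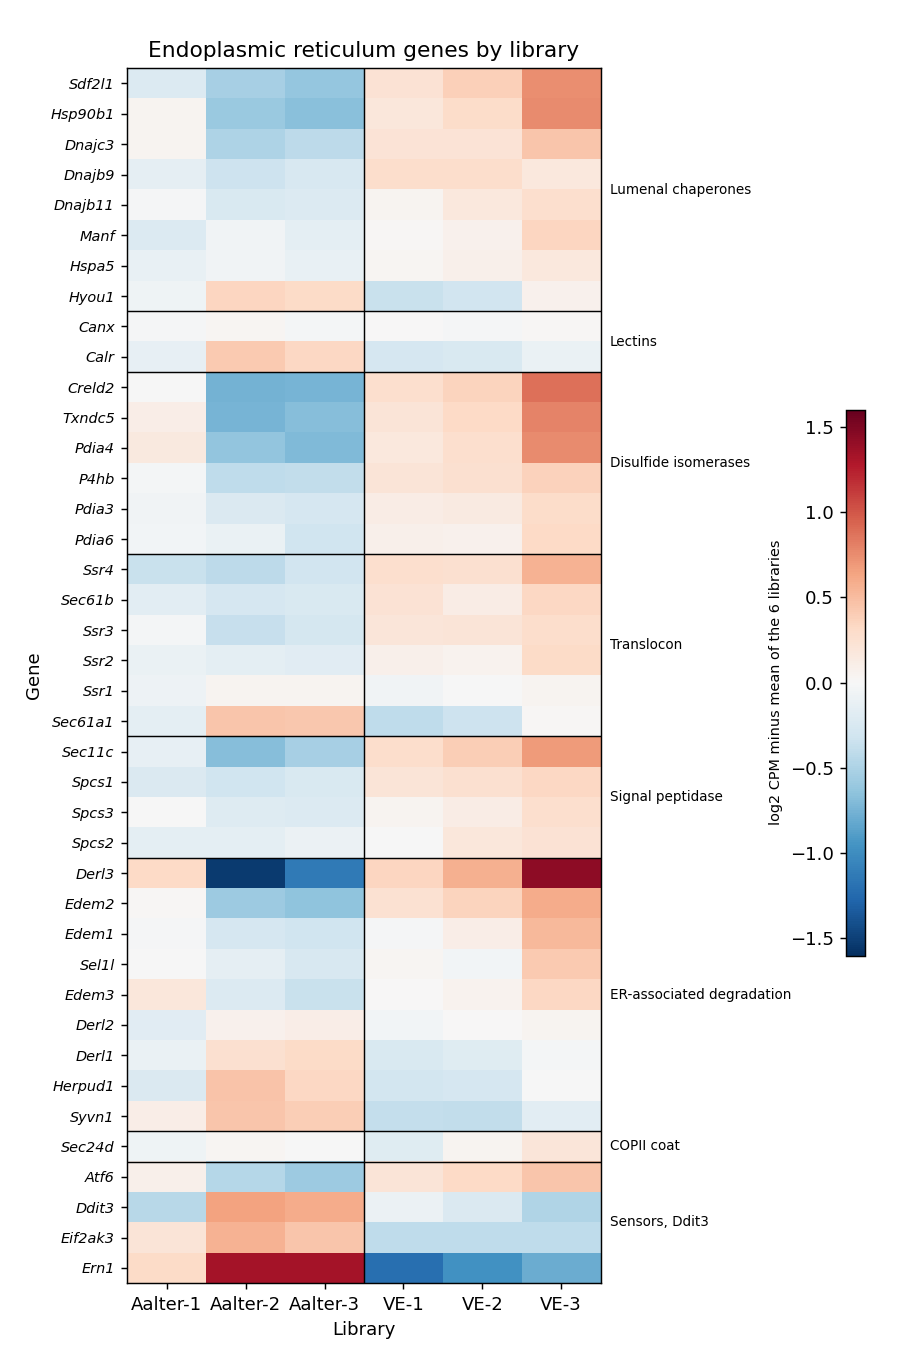
Heat map of the 40 genes (rows, by role) in the 6 libraries (columns), coloured by log2 CPM minus the gene's mean over the 6 libraries. Aalter-2 and Aalter-3 differ most from VE, Aalter-1 is paler and lies between them for genes such as Hsp90b1, Creld2 and Ern1, and VE-3 is the highest library for Derl3 and Creld2.

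Among the lumenal chaperones and their helpers, 5 of 8 rose and 0 fell. Hsp90b1, the Hsp90 of the endoplasmic reticulum (GRP94, chromosome 10 from 86690209 to 86705509, mm10), measured 639.7, 408.9 and 388 CPM across Aalter against 701, 758 and 1043 CPM across VE. The groups did not overlap, but Aalter-1 was nearer to VE than to the other Aalter libraries. The mean rose from 479 ± 139.7 to 834 ± 183 CPM (SD, n = 3). On the log2 scale this was 0.80 ± 0.24 (SE), at an edgeR adjusted p of 0.0394. After correction for trends on GC content and transcript length it was 0.57 and did not pass (adjusted p = 0.0717).

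Hspa5, the gene of BiP, measured 1269, 1324 and 1259 CPM across Aalter against 1400, 1457 and 1549 CPM across VE. It was the most abundant of the 40 per length, at 375 CPM per kilobase of its longest transcript over all 6 libraries. All VE libraries were above all Aalter libraries, by little, and the difference did not pass (log2 fold change 0.19 ± 0.10, edgeR adjusted p = 0.157). It passed without Aalter-1 and without both libraries numbered 1. The ratio of Hsp90b1 to Hspa5 within a library was 0.504, 0.309 and 0.308 in Aalter and 0.501, 0.52 and 0.674 in VE. The groups overlapped on this ratio, which was not tested, since Aalter-1 lay just above VE-1. Only Aalter-2 and Aalter-3 were below all VE libraries.

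Of the helpers of BiP, Sdf2l1, which keeps BiP's clients from aggregating, measured 19.1, 15.3 and 14.4 CPM across Aalter against 26.1, 29.0 and 37.3 CPM across VE. No library overlapped with the other group, and Aalter-1 sat with its group. The log2 fold change was 0.92 ± 0.17 with an edgeR adjusted p of 0.0124. Dnajc3, a J-domain co-chaperone, rose by 0.56 ± 0.16 on the log2 scale, from 88.5 ± 18.6 to 131 ± 12.1 CPM. Dnajb9, the J-domain protein that holds IRE1 in check, rose from 221 ± 15.1 to 309.9 ± 13.9 CPM (0.49 ± 0.10), but was at 0.12 and did not pass after correction for GC content and length. Dnajb11, another J-domain partner of BiP, rose by 0.32 ± 0.10 and did not pass after that correction. Its call was narrow (edgeR adjusted p = 0.0488), and 6 of 16 alternative fits made it. Manf, a secreted helper, did not pass (0.29 ± 0.12, edgeR adjusted p = 0.0897). Hyou1, the large Hsp70 that exchanges BiP's nucleotide, leaned the other way (-0.39 ± 0.16, edgeR adjusted p = 0.0936) and passed downward without Aalter-1.

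The lectin chaperones, which hold glycoproteins by their sugars, had 0 calls. Calr, calreticulin, measured 450.0, 661 and 618 CPM across Aalter against 409.7, 416 and 456 CPM across VE. Aalter-1 lay within VE and the other Aalter libraries above it, so the groups overlapped. Its log2 fold change of -0.43 ± 0.16 did not pass (edgeR adjusted p = 0.0677), and it passed downward without Aalter-1, with DESeq2 and with library size scaling. Canx, the membrane-bound relative, was level at 278, 286 and 275 CPM across Aalter against 281, 277 and 285 CPM across VE. Its difference of 0.0069 ± 0.083 on the log2 scale was smaller than its error. The ratio of Hsp90b1 to Calr went from 0.618 and 0.627 in Aalter-2 and Aalter-3 to between 1.71 and 2.29 in VE, with 1.42 in Aalter-1.

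All 6 genes of the disulfide isomerase family were above Aalter in every VE library, and 4 passed. Creld2, a stress-induced protein with isomerase activity (chromosome 15 from 88819646 to 88826683), measured 44.6, 26.4 and 26.8 CPM across Aalter against 53.7, 57.2 and 82.3 CPM across VE. VE-3 was highest and Aalter-1 stood between its group and VE. The log2 fold change was 0.98 ± 0.25 with an edgeR adjusted p of 0.0278. Txndc5, an isomerase abundant in plasma cells (chromosome 13 from 38500079 to 38528824), measured 105.5, 58.5 and 60.8 CPM across Aalter against 112, 122 and 169 CPM across VE. Aalter-1 was thus close to VE-1, and the call was narrow (0.84 ± 0.27, edgeR adjusted p = 0.0482). P4hb, the isomerase PDI itself, rose from 389 ± 58.6 to 568 ± 33.6 CPM (0.55 ± 0.13), and also after correction for GC content and length. Pdia3, which works with the lectins on glycoproteins, rose from 350.5 ± 27.6 to 454 ± 28.9 CPM (0.37 ± 0.10) and was at 0.16 after that correction, where it did not pass. Pdia4 measured 82.3, 47.8 and 45.3 CPM across Aalter against 83.1, 88.9 and 125 CPM across VE, with Aalter-1 just under VE-1, and did not pass (0.76 ± 0.27, edgeR adjusted p = 0.0652). Pdia6 did not pass either (0.31 ± 0.11).

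**Figure D2:**
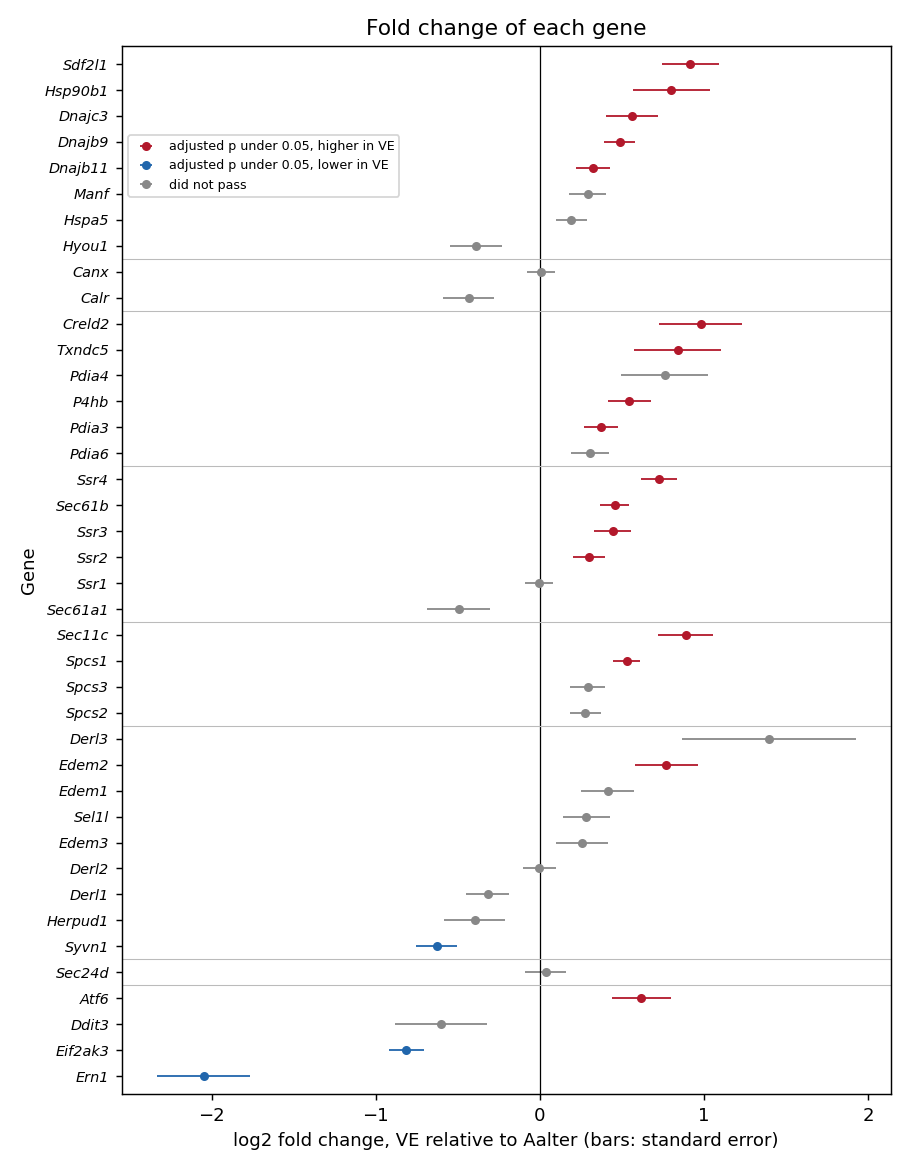
Log2 fold change of each gene, VE relative to Aalter, with its standard error as a bar, by role. The 17 red genes passed upward, the 3 blue genes Ern1, Eif2ak3 and Syvn1 passed downward, and the grey genes did not pass.

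Nascent chains enter through a channel of Sec61 subunits with the translocon-associated protein, encoded by Ssr1 to Ssr4. Of these 6 genes 4 rose and 0 fell. Ssr4 on chromosome X (73787028 to 73790830) measured 104.9, 99.7 and 108 CPM across Aalter against 161, 160.1 and 197 CPM across VE. Both groups were tight and well apart, and Aalter-1 sat with Aalter. The log2 fold change was 0.73 ± 0.11 with an edgeR adjusted p of 0.00753. Of the 17 risers, Ssr4 and the signal peptidase gene Spcs1 were those that passed in 5 of 6 fits with a library left out, while 14 passed in 1, that without Aalter-1, and Sdf2l1 in 2.

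Ssr3 rose by 0.45 ± 0.11, Sec61b, a small channel subunit, by 0.46 ± 0.089 and Ssr2 by 0.30 ± 0.096 on the log2 scale. After correction for GC content and length Ssr3 (0.13) and Sec61b (0.16) were lower and did not pass, and Ssr2 (0.38, adjusted p = 0.0581) did not pass either. The main call of Ssr2 was narrow (edgeR adjusted p = 0.0493), and 4 of 16 alternative fits made it. Ssr1 was level (-0.0060 ± 0.086). Sec61a1, the pore-forming subunit, measured 131.5, 199.9 and 198 CPM across Aalter against 111, 116 and 149 CPM across VE. Aalter-1 fell inside VE and the rest of Aalter lay above it, and the difference did not pass (-0.49 ± 0.19, edgeR adjusted p = 0.0845), though it did without Aalter-1. Subunits of the same channel thus had fold changes of opposite sign.

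The signal peptidase complex, which cuts the leader from secreted proteins, had 2 of 4 genes risen, and all 4 were above Aalter in every VE library. Sec11c, a catalytic subunit, measured 106, 72.3 and 80.9 CPM across Aalter against 141, 153 and 186 CPM across VE. Its log2 fold change was 0.89 ± 0.17 (edgeR adjusted p = 0.0126), and 11 of the 16 alternative fits called it, the exceptions being 5 fits with a library left out. Spcs1, an accessory subunit, measured 76.9, 72.6 and 76.0 CPM across Aalter against 104, 108 and 114 CPM across VE. This was among the cleanest separations of the group, at 0.53 ± 0.081 on the log2 scale (edgeR adjusted p = 0.00811). After correction for GC content and length it was at 0.073 (adjusted p = 0.691), and its exons share bases with Glt8d1 on the other strand. Spcs2 (0.28 ± 0.095) and Spcs3 (0.29 ± 0.10) did not pass.

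The 9 genes of degradation went in both directions, with 1 rise and 1 fall. Edem2, which trims mannose from misfolded glycoproteins, measured 42.1, 27.9 and 26.7 CPM across Aalter against 49.1, 53.2 and 62.8 CPM across VE. It rose by 0.77 ± 0.19 on the log2 scale (edgeR adjusted p = 0.0246), while its relatives Edem1 (0.41 ± 0.16) and Edem3 (0.26 ± 0.16) did not pass. Edem1 did pass after correction for GC content and length (0.54, adjusted p = 0.0346). Derl3, a retrotranslocation protein made by secretory cells (chromosome 10 from 75893413 to 75895941), measured 7.85, 2.17 and 2.87 CPM across Aalter against 7.95, 9.30 and 17.0 CPM across VE. Aalter-1 and VE-1 were nearly equal, and the difference of 1.40 ± 0.53 on the log2 scale did not pass (edgeR adjusted p = 0.0846). It passed without Aalter-1 and with DESeq2. Its relatives Derl1 (-0.32 ± 0.13) and Derl2 (-0.0029 ± 0.10) did not pass.

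Syvn1, the ligase HRD1 that marks misfolded proteins (chromosome 19 from 6046576 to 6053712), measured 33.4, 42.3 and 40.9 CPM across Aalter against 23.9, 23.7 and 27.7 CPM across VE. The groups did not overlap, and the log2 fold change was -0.63 ± 0.12 with an edgeR adjusted p of 0.0138. After correction for GC content and length it was at -0.13 (adjusted p = 0.338), and its exons share bases with Mrpl49 on the other strand. Sel1l, the partner that holds the ligase together, measured 99.5, 90.6 and 83.4 CPM across Aalter against 102, 97.0 and 134 CPM across VE, overlapped between groups and did not pass (0.28 ± 0.14), though it did after that correction (0.47, adjusted p = 0.0324). Herpud1, an adaptor of the same complex, measured 172, 279 and 254 CPM across Aalter against 166, 169 and 202 CPM across VE. It did not pass (-0.40 ± 0.19) and fell without Aalter-1. Sec24d, the cargo-binding coat subunit, was level (0.035 ± 0.12).

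The sensors had the strongest falls. Ern1, the gene of IRE1 (chromosome 11 from 106394650 to 106487852), measured 44.0, 89.7 and 89.5 CPM across Aalter against 15.4, 18.1 and 20.4 CPM across VE. Each Aalter library was at least 44.0 CPM and each VE library at most 20.4 CPM, with Aalter-1 between the other Aalter libraries and VE. The mean fell from 74.4 ± 26.3 to 17.97 ± 2.51 CPM, a log2 fold change of -2.05 ± 0.28 with an edgeR adjusted p of 0.00688. Over 16 alternative fits the log2 fold change lay between -2.32 and -1.68, and 15 of them passed, all but that without VE-2 (adjusted p = 0.0545).

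Eif2ak3, the gene of PERK (chromosome 6 from 70844515 to 70905245), measured 86.0, 109.8 and 102 CPM across Aalter against 56.5, 56.6 and 56.4 CPM across VE. The VE libraries had an SD of 0.104 CPM and the Aalter libraries were all higher. Its log2 fold change was -0.81 ± 0.11 (edgeR adjusted p = 0.00576), between -0.95 and -0.55 over the alternatives, and the fit without VE-2 was again the exception (adjusted p = 0.0514). Atf6 (chromosome 1 from 170704674 to 170867771) measured 107, 73.5 and 67.3 CPM across Aalter against 116, 127 and 137 CPM across VE. Aalter-1 was nearer to VE-1 than to its own group, and no library crossed over. The log2 fold change was 0.62 ± 0.18 (edgeR adjusted p = 0.0362), and 0.80 after correction for GC content and length. The call was lost with library size scaling, with the replicate block and in 5 of 6 fits with a library left out, where the adjusted p reached 0.141. The ratio of Atf6 to Ern1 transcripts was 2.43, 0.819 and 0.752 in Aalter and 7.55, 6.99 and 6.72 in VE, which sets all VE libraries above all Aalter libraries.

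Ddit3, the gene of the death-promoting factor CHOP, measured 33.2, 70.9 and 68.1 CPM across Aalter against 42.4, 38.6 and 32.4 CPM across VE. Aalter-1 was inside the range of VE while Aalter-2 and Aalter-3 were well above it. The difference did not pass (-0.60 ± 0.28, edgeR adjusted p = 0.136), but passed without Aalter-1 and after correction for GC content and length (-1.20, adjusted p = 0.0452). Its exons share bases with those of the second Ddit3 ID and, on the other strand, of Mars, so its level is uncertain. In all, 9 of the 40 genes share exon bases with another gene of the table, Txndc5 among them (with Bmp6 on the other strand), and whether counting used the strand is not given in the sources used here.

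**Figure D3:**
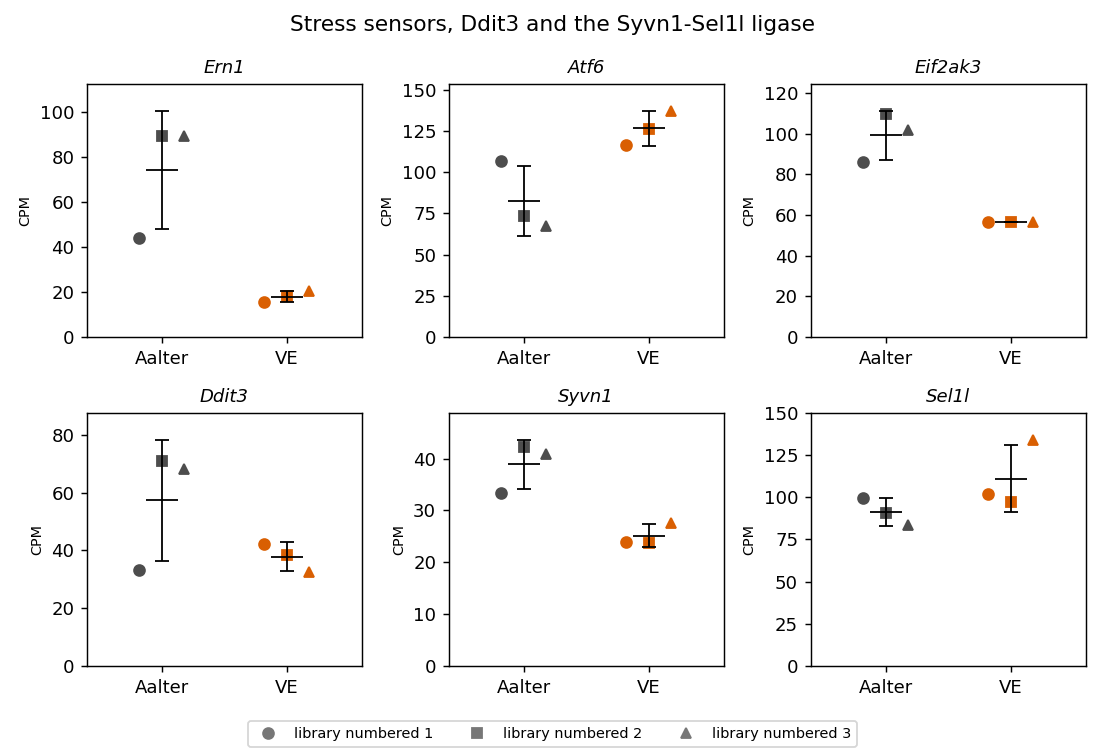
CPM of the 3 sensor genes, Ddit3 and the degradation genes Syvn1 and Sel1l, 1 point per library, with the mean and SD of each group as a line and bar. Ern1, Eif2ak3 and Syvn1 lie lower in every VE library, Atf6 lies higher, and the groups overlap for Ddit3 and Sel1l.

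Levels differed widely within the group. Per kilobase of longest transcript and over all 6 libraries, Hspa5 (375 CPM), Calr (229.8 CPM), Hsp90b1 (204 CPM), P4hb (167 CPM) and Pdia3 (145 CPM) were most abundant, while Sec24d (5.801 CPM), Derl3 (5.95 CPM), Ern1 (6.65 CPM) and Syvn1 (7.84 CPM) were lowest. The summed level of all 40 was 6929, 6763 and 6586 CPM across Aalter against 7511, 7787 and 8908 CPM across VE, so the VE libraries lay above the Aalter libraries. By role the sums of the disulfide isomerases (923 to 1196 CPM in Aalter, 1357 to 1628 CPM in VE), signal peptidase (375 to 429.8 and 509 to 611 CPM) and lumenal chaperones (2270 to 2573 and 2881 to 3456 CPM) did not overlap. The sums of the sensors and Ddit3 were lower in VE (270.1 to 344 CPM in Aalter, 231 to 246.5 CPM in VE). In Aalter-1, 21 of the 40 genes were nearer to the VE mean than to the mean of Aalter-2 and Aalter-3, against 57.7% of all genes tested.

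Other genes of the pathway were read from lists that hold no member. Of 23 tested folding enzymes and helpers 11 rose and 2 fell, with a median log2 fold change of 0.51. Ppib, a proline isomerase of the endoplasmic reticulum, rose from 188 ± 14.2 to 270.3 ± 11.7 CPM (0.52 ± 0.096) and Erp29 by 0.51 ± 0.097, while Uggt1, which checks glycoprotein folding, fell by 0.40 ± 0.083 on the log2 scale. Of 15 cargo receptors and recycling genes 6 rose and 0 fell, with a median of 0.37. These included Tmed10 (0.49 ± 0.094) and Ergic1 (0.58 ± 0.15), which cycle between the endoplasmic reticulum and the Golgi, and the cargo receptor subunit gene Mcfd2 (0.52 ± 0.13).

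Beside the 12.8% of all genes that rose and the 19.5% that fell, of 20 genes of the COPII and COPI coats 3 rose and 7 fell, with a median of 0.052. Sec24c, a cargo-binding relative of Sec24d, fell from 105.5 ± 28.2 to 45.9 ± 1.59 CPM (-1.20 ± 0.20), Sec16a, the scaffold of exit sites, fell from 134 ± 47.0 to 50.6 ± 1.91 CPM (-1.41 ± 0.26) and Copg1 fell by 0.70 ± 0.13. The oligosaccharyltransferase, which adds sugars to nascent chains, had 0 rises and 1 fall among 12, that of its catalytic subunit gene Stt3b (-0.40 ± 0.082). Ostc (0.32 ± 0.10) and Rpn1 (0.68 ± 0.23) did not pass. Of 8 genes of the signal recognition particle and its receptor 2 rose, Srp19 (0.39 ± 0.090) and Srp9 (0.28 ± 0.081), and Srp68 fell by 0.44 ± 0.098. Of 7 other translocon genes 2 rose, Tram1 (0.38 ± 0.10) and Sec61g (0.46 ± 0.14), and Sec11a did not pass (-0.24 ± 0.11). Among 19 further degradation genes 3 rose and 5 fell, with Selenos higher (0.64 ± 0.12) and Fam8a1 (-1.14 ± 0.22) and Nploc4 (-0.67 ± 0.14) lower.

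Downstream of the sensors, Xbp1, whose messenger RNA is spliced by IRE1, measured 244, 156 and 157 CPM across Aalter against 270.2, 289 and 377 CPM across VE. It rose by 0.75 ± 0.21 on the log2 scale (edgeR adjusted p = 0.035), in the opposite direction to Ern1, and the gene counts do not show splicing. Among 13 tested stress transducers 1 rose, which was Xbp1, and 4 fell, with Nfe2l1 (-0.95 ± 0.15), Bbc3 (-1.25 ± 0.25) and Traf2, an adaptor of IRE1 (-1.18 ± 0.27), at the smallest p-values. Of 10 tested targets of PERK and ATF4, 3 rose and 2 fell. Trib3, a pseudokinase raised by ATF4 and CHOP, measured 7.55, 32.9 and 34.9 CPM across Aalter against 3.23, 3.60 and 2.74 CPM across VE, which gives -2.98 ± 0.60 on the log2 scale (edgeR adjusted p = 0.0171). Nupr1 (0.88 ± 0.20) and Ppp1r15a, which reverses the block of translation (0.44 ± 0.10), rose. The list thus held members moving in both directions.

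Plasma cell genes are given beside the folding genes. Jchain, which joins secreted antibody, measured 2299, 519 and 550.4 CPM across Aalter against 2843, 3359 and 5470 CPM across VE. Igkc, the kappa light chain, measured 6691, 1678 and 1731 CPM across Aalter against 9520, 10876 and 17950 CPM across VE. Neither passed (edgeR adjusted p = 0.0988 and 0.0658), while Tnfrsf17, the survival receptor of plasma cells, rose by 1.16 ± 0.25. Hsp90b1, Creld2, Txndc5, Derl3 and Xbp1, named here after their values were seen, had Aalter-1 above the other Aalter libraries and VE-3 highest, like Jchain and Igkc. Other members had this pattern too, among them P4hb, Pdia3, Ssr3 and Atf6. Which cells these transcripts came from was not tested, and the share of all genes with the pattern was not computed. In the monocyte and macrophage list Adgre1, Csf1r and Ccr2 had it as well. Cd14, Lyz2 and Cx3cr1 of that list did not, since VE-3 was their lowest VE library. Itgam, of the same list, had the pattern and measured 566, 278 and 289 CPM across Aalter against 731, 753 and 831 CPM across VE. The pattern was not shared by all genes. VE-3 was the lowest VE library for Dnajb9, and VE-2 was highest for Tnfrsf17. Aalter-1 was not the highest Aalter library for Hspa5, Manf, Calr or Hyou1. Of 11 plasma cell markers outside the endoplasmic reticulum 4 rose and 1, Irf4, fell (-2.76). Their summed level was 2972 to 9459 CPM in Aalter and 12797 to 23996 CPM in VE, and none was at 0 in all libraries. Most of this sum was Igkc and Jchain in every library, and neither passed. The sum therefore says little of the other markers, which went in both directions. Tnfrsf17 (1.16), Eaf2 (1.30), Cd38 (0.93) and Tnfrsf13b (0.82) were those that rose on the log2 scale. Irf4 went from 378.5 to 55.66 CPM and Pou2af1 was level (-0.050 ± 0.138). Every VE library was above every Aalter library for 7 of the 11 and below for 1, beside 25.6% and 26.3% of all genes tested. The part of plasma cells in the rise of the folding genes was not tested. With immunoglobulin genes left out of the fit the same counts of 17 rises and 3 falls came out. That fit checks the scaling only. Other RNA of plasma cells stays in the counts, so it does not bear on their part.

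Markers of other cell types are given beside the same shares of all genes, 12.8% risen and 19.5% fallen. Neutrophil markers rose in 10 of 12, with sums of 26090 to 30362 CPM in Aalter and 36984 to 45068 CPM in VE. Monocyte and macrophage markers rose in 7 of 11 and fell in 1, with sums of 4619 to 6403 and 8262 to 8674 CPM. Airway secretory markers rose in 0 and fell in 5 of 7 tested, with sums of 216 to 417 and 108 to 136 CPM. B cell markers rose in 0 and fell in 8 of 12, with sums of 420 to 502 and 332 to 359 CPM. T cell markers rose in 1 and fell in 7 of 12, with sums of 1081 to 1407 and 909 to 1087 CPM, and erythroid markers fell in 5 of 5. Fibroblast markers rose in 2 of 8, alveolar type 2 markers in 1 of 8, alveolar macrophage markers rose in 1 and fell in 6 of 12, and hepatocyte markers had 0 calls in 12. The part of these cells in the results was not tested.

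**Figure D4:**
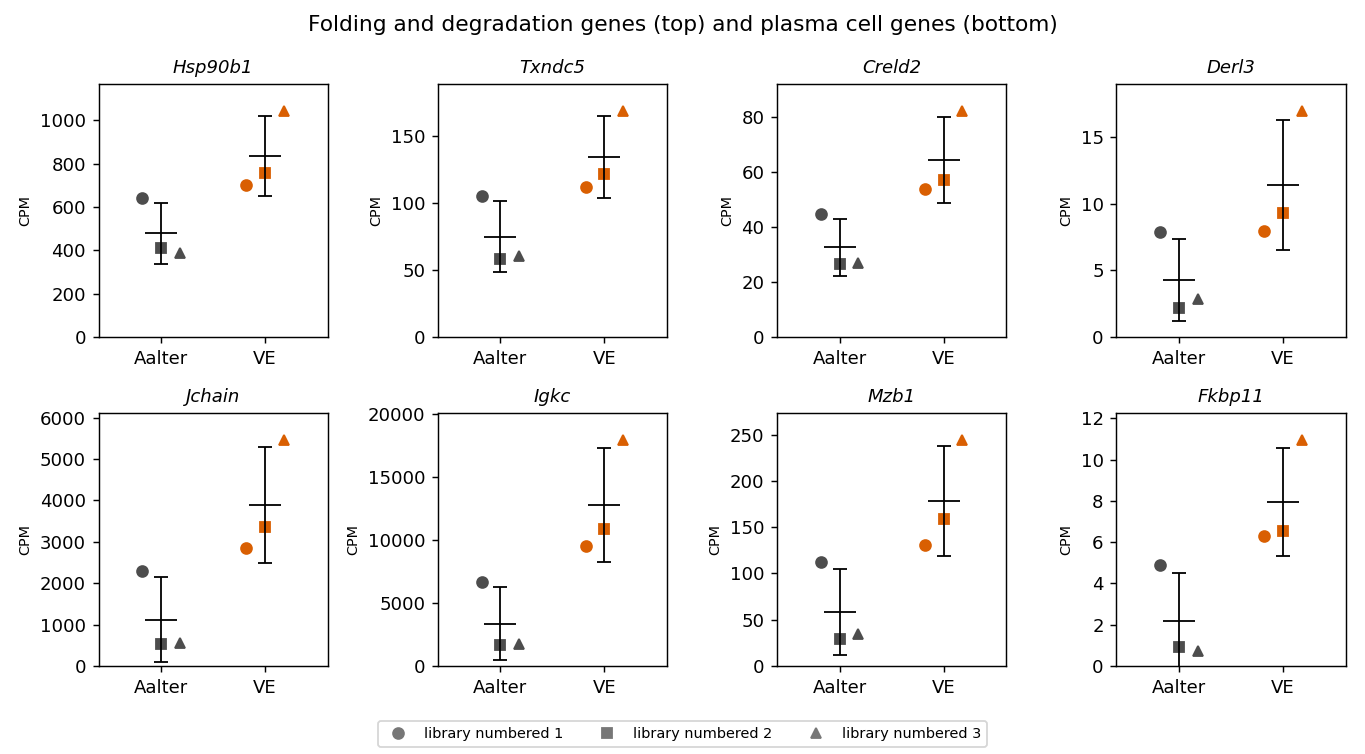
CPM of folding and degradation genes (top row) and plasma cell genes (bottom row), 1 point per library, with the mean and SD of each group as a line and bar (the lower bar of Fkbp11 in Aalter is cut at 0). The rows are not separate classes. Txndc5 and Derl3 are also plasma cell markers, and Mzb1 and Fkbp11 are also among the folding enzymes and helpers. In each panel Aalter-1 lies above the other Aalter libraries and VE-3 is highest, at 1043 CPM for Hsp90b1 and 5470 CPM for Jchain. Genes without this pattern, such as Dnajb9, and genes of other marker lists that have it, such as Itgam, are not shown.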

How the data were processed

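The deposited table held estimated counts per gene and library. The build is mm10, per the submitters' processing notes, while aligner and counter are not stated there. Fractional values made up 10.5% to 12.2% of a library's entries, and all were rounded before the fit. A count of 3 corresponds to between 0.185 and 0.258 CPM, and such floors cover counting error only. Genes were filtered and scaled (filterByExpr, TMM) and tested with edgeR 4.0.16's quasi-likelihood test, robust, in 3 VE against 3 Aalter libraries with no covariate. P-values were adjusted by Benjamini-Hochberg over 12551 genes, with a threshold of 0.05. CPM are relative to the TMM-scaled library size, and standard errors are the log2 fold change over the square root of F. Coordinates are from GENCODE vM21 and promoters from RefSeq. In simulated counts of 12445 genes, recovery was 66% for genes given a log2 change of 1 and 99% for those given 2, and 7.3% of calls were false. The simulation gave all genes the same dispersion and drew the libraries independently. It held neither an Aalter library near VE nor liver transcripts, so these rates need not apply to the real libraries. Alternatives were other scalings, filters and tools (DESeq2 1.42.0, limma 3.58.1), GC content and length offsets, no immunoglobulin genes, a replicate block and libraries left out. Likeness of libraries was read from a median chi-square over genes, which is 0.455 under counting noise alone. No pair was as low as that. The closest were VE-1 with VE-2 (0.693) and Aalter-2 with Aalter-3 (1.03). Aalter-1 was at 6.03 and 6.37 with its own group and at 4.76 to 5.01 with VE. The genes and lists were chosen with earlier results of these data known. From each pathway list, up to 3 genes with the smallest p-values are named.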

Additional observations from a re-analysis of the deposited data

How the results depend on the processing

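Of the 20 genes called, 0 changed sign under the 16 alternatives. Leaving out each library in turn gave 0 to 24 rises and 0 to 9 falls among the 40 genes, and 2 to 3561 rises and 177 to 3652 falls over all genes. The highest counts came without Aalter-1 and the lowest without VE-2. Without both libraries numbered 1, 26 of the 40 rose and 9 fell, and 3404 of all genes rose. With library size scaling 6 of the 40 rose and 7 fell, and 495 of all genes rose. After correction for GC content and length 11 of the 40 rose, and 1586 of all genes fell. With a replicate block 10 of the 40 rose and 4 fell, beside 1193 and 2074 of all genes. The library numbers were not taken as pairs, since no label says what a number marks. Same-numbered libraries deviated together with correlations of 0.299, 0.272 and 0.0532, and Aalter-3 correlated best with VE-2 (0.171). These values do not settle whether the libraries were paired. The cause of these differences was not tested. Canx, Derl2, Ssr1 and Sec24d, all near 0, changed sign. Canx was at -0.131 with library size scaling, -9.27e-06 with DESeq2, -0.0804 after that correction, -0.00757 without Aalter-3 and -0.031 without VE-3. Canx ranged from -0.031 to 0.0233 in the fits with a library left out. Derl2 was at 0.00376 with limma-voom, 0.00243 with a mean of at least 5 CPM, 0.00668 without immunoglobulin genes, 0.00139 with the replicate block, 0.0305 without Aalter-2, 0.0455 without Aalter-3 and 0.0185 without VE-1. The fits with a library left out gave Derl2 from -0.0846 to 0.0455. Ssr1 was at 0.00346 without immunoglobulin genes, 0.189 after that correction, 0.0108 without Aalter-2, 0.0144 without Aalter-3 and 0.0153 without VE-1. The same fits gave Ssr1 from -0.0588 to 0.0153. Sec24d was at -0.101 with library size scaling and -0.0846 without VE-3. Those fits gave Sec24d from -0.0846 to 0.129.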

Other observations

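Chaperones of the cytosol, which fold proteins outside the endoplasmic reticulum, were read as a separate list of 16 genes. Of these 0 rose and 3 fell, beside 12.8% and 19.5% of all genes tested, so the falls were near the share over all genes. The median log2 fold change was -0.007, beside 0.023 over all genes tested. Hsph1, a nucleotide exchange factor of Hsp70, measured 40.6, 57.4 and 61.5 CPM across Aalter against 25.6, 28.4 and 28.9 CPM across VE, which gives -0.94 ± 0.16 on the log2 scale (edgeR adjusted p = 0.0099). Hsp90ab1, the constitutive cytosolic Hsp90, fell from 1208 ± 272 to 755 ± 1.05 CPM (-0.68 ± 0.17), while its relative in the endoplasmic reticulum, Hsp90b1, rose. Hspa1b, a heat-inducible Hsp70, fell by 0.67 ± 0.17 on the log2 scale.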
